A study of Mus musculus with 6 samples.

Results

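Chemokine ligand genes were examined in endothelial cells of 4T1 mouse mammary tumours that either carried intravenously injected gold nanoparticles or did not. The members are the 29 genes whose name in the authors' deposited table is Ccl, Cxcl, Cx3cl or Xcl followed by a number and at most 1 letter, out of 26071 genes in that table and 49315 in the count files. Each tumour was raised for 2 weeks from 4T1 cells, a transplantable mammary carcinoma line, in the inguinal mammary fat pad of a female Balb/c mouse that was 8 weeks old at implantation and 10 weeks old at harvest. Every mouse, on both sides of the comparison, received 1E12 gold particles of 50 nm carrying 5K mPEG (methoxy polyethylene glycol) and Cy5, a far-red dye, through the tail vein, and tumours were taken 1 hour later. Magnetic beads removed CD45+ cells and retained CD31+ cells, and flow cytometry divided the retained cells into a nanoparticle-positive (NP+) and a nanoparticle-negative (NP-) fraction. There are 6 libraries, an NP+ and an NP- one from each of 3 tumours, and none of the libraries comes from an uninjected animal. P values therefore rest on the spread between 3 tumours. Values of a fraction are listed in tumour order, MET-106 first, then MET-107, then MET-108. The comparison asks how the chemokine transcripts of endothelial fractions with and without particles differ.

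Chemokines are small secreted proteins that direct leukocyte migration through G protein-coupled receptors. They are classed by the spacing of their first cysteines into CC, CXC, CX3C and XC families. Endothelial cells both make chemokines and display them on surface heparan sulfate, where they arrest rolling leukocytes. In inflamed vessels NF-kappaB drives Ccl2 and Cxcl1, while interferons drive Cxcl9, Cxcl10 and Cxcl11. Macrophages, fibroblasts and carcinoma cells are further abundant sources of these ligands in tumours.

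Each library held 20856410 to 58089600 gene counts, of which 20908 to 66560 fell on the members. Levels are given as CPM, which are counts scaled to library size with TMM factors, and means are ± SD over the 3 libraries of a group. Pecam1, the gene of the sorted antigen CD31, stood at 3812, 2815 and 3245 CPM across NP+ against 1931, 2302 and 2825 CPM across NP-. Among 10 pan-endothelial markers, 4 were higher in NP+ and 0 lower at an unadjusted p under 0.05 by edgeR, against 8.01% and 15.4% of all genes. For 6 of the 10 all NP+ libraries lay above all NP- libraries, against 12.2% of the genes in the deposited table. The part of this difference in the values below was not tested. Ptprc, the CD45 gene, stood at 3.71, 5.61 and 4.14 CPM in NP+, against 10.2, 25.7 and 5.89 CPM in NP-. Markers of other cell types were not even between the libraries. The 7 fibroblast markers summed to 13.5 to 56.3 CPM in NP+ and to 3793, 129 and 57.2 CPM in NP-. The 7 epithelial or tumour cell markers summed to 8.24 to 13.3 CPM in NP+ and to 622, 32.8 and 18.0 CPM in NP-. The NP- library of MET-106 thus stood apart for both lists, and many but not all results that rest on it are also given without it. The 11 macrophage markers summed to 21.6 to 32.3 CPM across NP+ against 133, 94.9 and 48.7 CPM in NP-, and the 8 neutrophil markers to 4.42 to 6.42 and 22.5, 137 and 11.9 CPM. The 9 lymphocyte markers summed to 5.08 to 5.60 CPM in NP+ and to 38.7, 25.6 and 14.6 CPM in NP-. The 7 pericyte and smooth muscle markers summed to 44.8 to 81.7 CPM in NP+ and to 773, 217 and 90.2 CPM in NP-. The 6 lymphatic endothelial markers summed to 399 to 456 CPM across NP+ against 255, 1759 and 733 CPM in NP-. Counts in 1405 olfactory receptor genes, which endothelium is not known to use, came to 0.0327, 0.1003 and 0.0583 CPM per kb of exon in NP+ and 0.0872, 0.422 and 0.337 CPM per kb in NP-. That density times a gene's length is the background level used below. Being a mean over many genes, it gives no limit for any 1 gene. The mean level of Ptprc was 3.84 times this background in NP+ and 2.69 times in NP-.

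No chemokine ligand gene passed the test between NP+ and NP- after adjustment over all genes. In edgeR's quasi-likelihood test 0 of the 26 members tested had an adjusted p under 0.05, where 0.0292% of all 23989 genes tested did. With the tumour as a block it was again 0 members, where 0.0625% of genes passed. DESeq2 called 10 members, 1 higher and 9 lower in NP+, among 3331 genes, of which 966 were higher and 2365 lower. The limma-voom fit called 0 members. Without the NP- library of MET-106 edgeR called Ccl22 and Ccl28 among 2320 genes, of which 968 were higher and 1352 lower. Without that of MET-108 it called Ccl4, Ccl6 and Ccl11 among 290 genes, of which 113 were higher and 177 lower. These members were all lower in NP+. At an unadjusted p under 0.05, 2 members were higher in NP+ (7.69% of those tested, against 8.01% of all genes) and 10 were lower (38.5%, against 15.4%). With the block the members numbered the same, against 7.85% higher and 14.6% lower among all genes, but Cxcl1 took the place of Ccl11 among the lower ones. With all 6 libraries, Ccl28, Cxcl13 and Cxcl15 were too low to be tested. Counted over all 29 members, 1 member had all NP+ libraries above all NP- libraries (3.45%, against 12.2% of the genes in the deposited table) and 8 had all below (27.6%, against 15.5%). Without the NP- library of MET-106, 4 were above (13.8%, against 20.0%) and 9 below (31.0%, against 32.9%), so that the share below then lay near the background. Within tumours, 17 members were lower in NP+ in 3 of 3 (58.6%, against 30.9%) and 1 was higher in 3 of 3 (3.45%, against 18.3%). The median log2 fold change of NP+ over NP-, from a fit without a low-count filter, was -1.76 over all 29 members and -0.30 over the genes of the deposited table, and without the NP- library of MET-106 it was -0.84 and -0.27. In bulk libraries such as these, fewer cells of a type and less RNA per cell cannot be told apart.

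**Figure D1:**
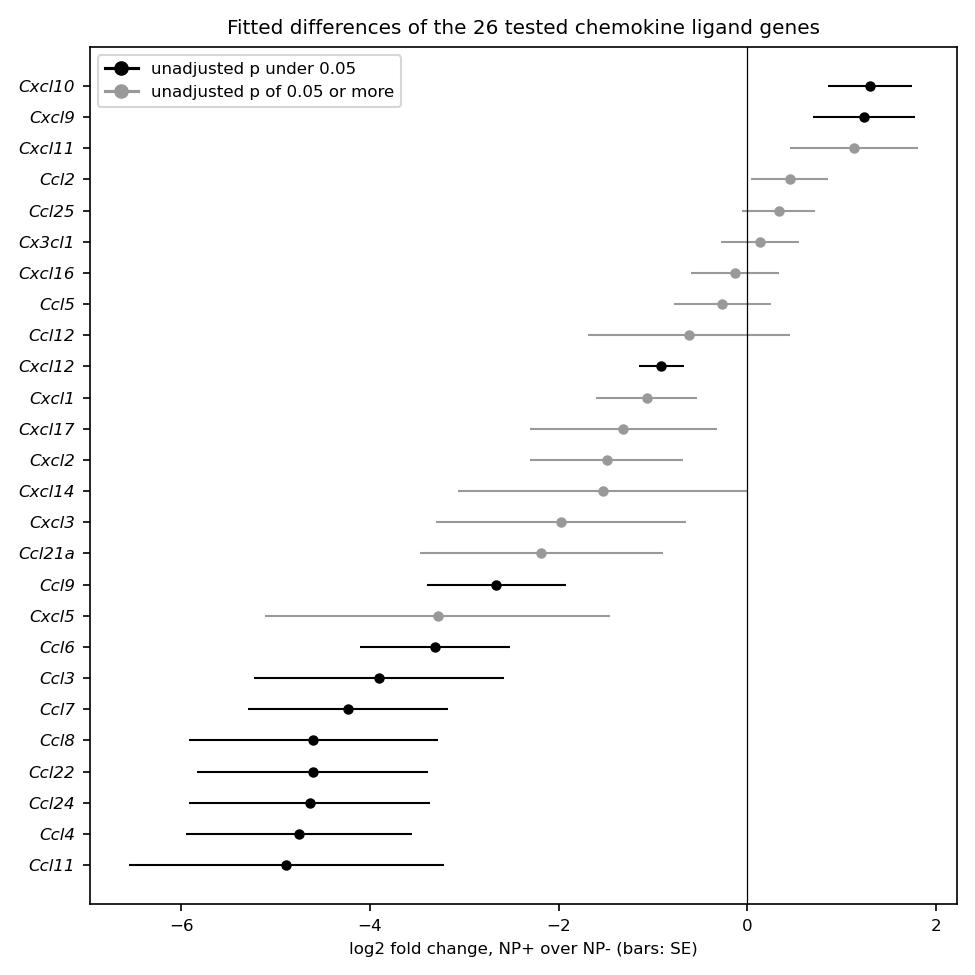
Fitted log2 fold changes of NP+ over NP- for the 26 chemokine ligand genes tested by edgeR, with bars of 1 SE, 6 libraries. Black points have an unadjusted p under 0.05: Cxcl10 and Cxcl9 lie to the right of 0, and Cxcl12 and 9 CC ligands lie to the left with wide bars for the CC ligands.

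Levels between genes were compared per kb of exon. By group mean, Ccl2 and Cxcl1 were the members with the highest level in either fraction. In NP+ they stood at 88.9 ± 20.5 and 62.0 ± 24.0 CPM per kb, followed by Cxcl10 at 44.7 ± 26.7, Cxcl9 at 34.3 ± 24.5, Cxcl12 at 26.1 ± 7.02, Cx3cl1 at 23.8 ± 5.06 and Cxcl11 at 18.2 ± 13.8 CPM per kb. Neighbours from Cxcl10 to Cxcl11 in that order did not differ beyond their spread over libraries. In NP- Cxcl1 came first at 129.8 ± 102, then Ccl2 at 65.1 ± 40.5, Cxcl12 at 49.2 ± 8.75, Ccl7 at 30.4 ± 38.9, Ccl11 at 25.1 ± 40.1 and Cx3cl1 at 21.8 ± 13.2 CPM per kb. The SDs of Ccl7 and Ccl11 exceeded their means because the NP- library of MET-106 was far above the other 2. The next member in NP+, Ccl5, stood at 3.78 ± 1.37 CPM per kb, and the lowest, Cxcl15, at 0.0200 ± 0.0346 CPM per kb. In MET-107 the order differed from that of the means. Its NP- library had Cxcl12 first at 58.2 CPM per kb, above Cxcl1 at 47.2 and Ccl2 at 31.0. In its NP+ library Cxcl10 at 75.5 and Cxcl9 at 62.2 CPM per kb lay above Cxcl1 at 40.2.

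**Figure D2:**
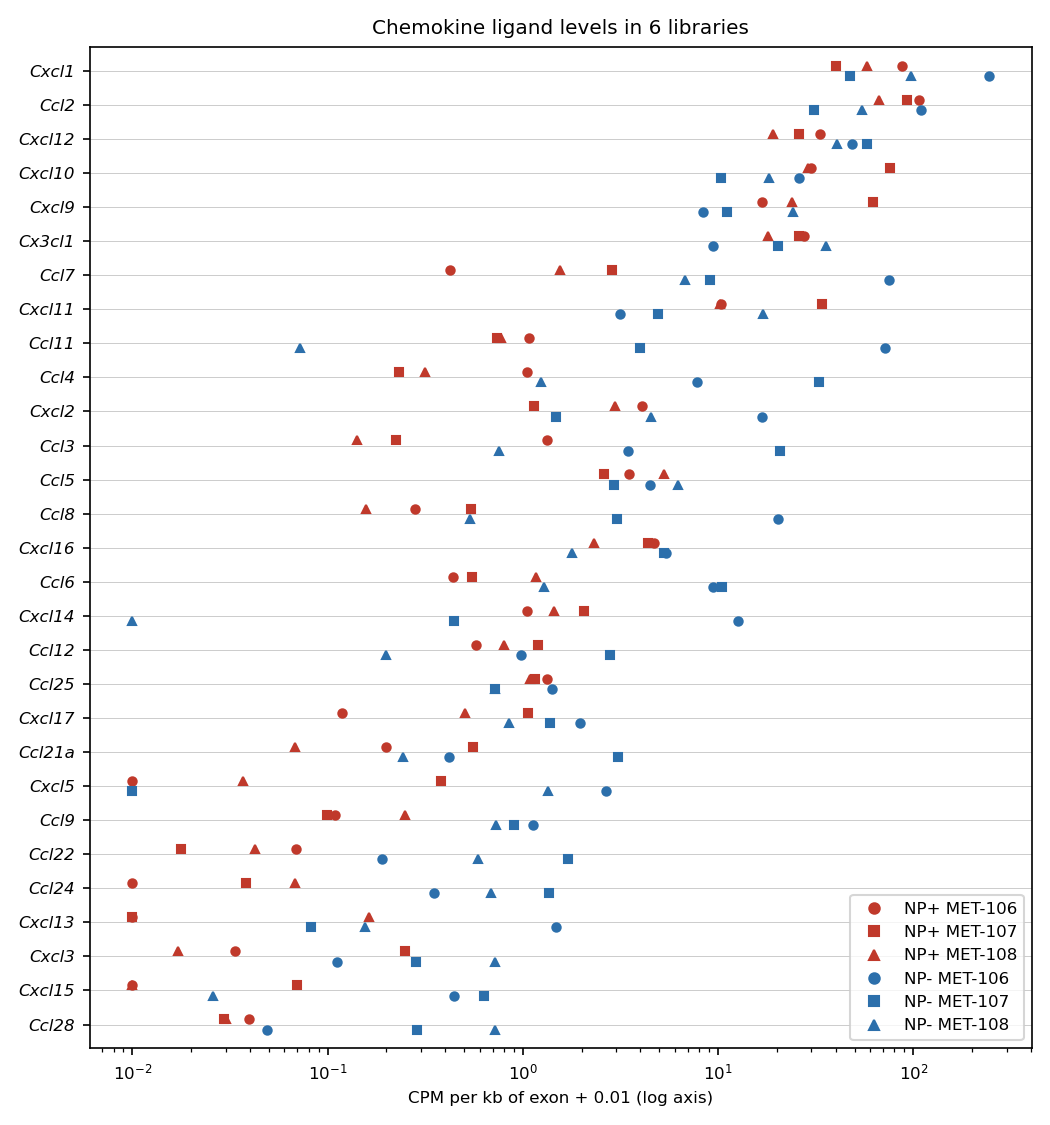
Level of each of the 29 chemokine ligand genes in each library, as CPM per kb of exon plus 0.01 on a log axis, with 1 point per library, colour for the fraction and shape for the tumour. Cxcl1 and Ccl2 top the order, and for Ccl7, Ccl11 and Ccl8 the NP- library of MET-106 lies far to the right of the rest.

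As a share of the members' summed CPM per kb, Ccl2 took 32.2, 24.7 and 27.3% across NP+ against 16.0, 10.8 and 17.1% across NP-. All 3 NP+ shares lay above all NP- shares, but the CPM of Ccl2 itself overlapped between the groups. A share also depends on the levels of the other members. Cxcl10 took 8.94, 20.0 and 11.8% in NP+ and 3.77, 3.63 and 5.73% in NP-, again without overlap. The small share of Ccl25 was likewise higher in NP+ without overlap. Those of Ccl4, Ccl7, Ccl8, Ccl9, Ccl22 and Ccl24 were lower without overlap. Ccl3 and Ccl4, both macrophage inflammatory protein genes, took 7.24% and 11.5% in the NP- library of MET-107, and at most 0.504% and 1.13% in any other library. Ccl7 and Ccl11 took 10.9% and 10.4% in the NP- library of MET-106. All CXC and CX3C members together took 64.7, 72.5 and 67.9% in NP+ and 55.5, 56.4 and 76.4% in NP-, and the groups overlapped.

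**Figure D3:**
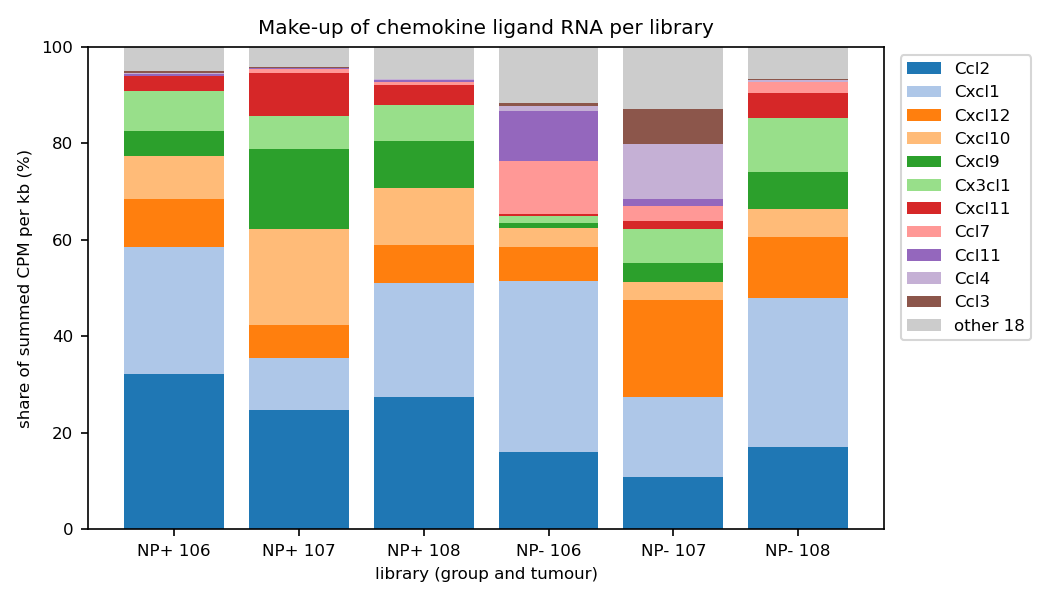
Share of each library's summed chemokine ligand level, in CPM per kb of exon, taken by 11 members and by the other 18 together. Ccl2 fills 24.7 to 32.2% of the NP+ bars and 10.8 to 17.1% of the NP- bars, and Ccl7 with Ccl11 or Ccl3 with Ccl4 widen in the NP- bars of MET-106 and MET-107.

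The interferon-inducible ligands Cxcl9, Cxcl10 and Cxcl11 attract activated T cells and natural killer cells through the receptor Cxcr3. They lie side by side on chromosome 5 between 92321347 and 92365485 (GRCm38), all on the minus strand and annotated as separate genes: Cxcl9 (ENSMUSG00000029417) from 92321347 to 92328079, Cxcl10 (ENSMUSG00000034855) from 92346638 to 92348889 and Cxcl11 (ENSMUSG00000060183) from 92359544 to 92365485. Cxcl10 stood at 66.9, 170.1 and 64.8 CPM across NP+ against 58.5, 23.4 and 41.0 CPM across NP-. It was the only member with every NP+ library above every NP- library, although NP+ MET-106 and MET-108 were close to NP- MET-106. Its log2 fold change, here always NP+ over NP-, was 1.30 ± 0.44 SE, with an adjusted p of 0.155 by edgeR. Cxcl9 stood at 50.6, 188 and 71.9 CPM across NP+ against 25.2, 33.4 and 73.3 CPM in NP- (log2 fold change 1.24 ± 0.54 SE, adjusted p = 0.210). The groups overlapped because in MET-108 both fractions were nearly level. Cxcl11 stood at 39.1, 129 and 38.9 CPM across NP+ against 11.9, 18.7 and 64.5 CPM in NP- (log2 fold change 1.13 ± 0.68 SE, adjusted p = 0.322), and in MET-108 it was lower in NP+. For all 3 genes the NP+ library of MET-107 held the highest of the 6 values. In a fit without that library the log2 fold changes were 0.52 for Cxcl9, 0.71 for Cxcl10 and 0.34 for Cxcl11. Without both libraries of MET-107 they were 0.31, 0.40 and 0.03. Without the NP- library of MET-108 they were instead 1.84, 1.31 and 2.21, and without both libraries of MET-108 2.10, 1.55 and 2.55. Without both libraries of MET-106 that of Cxcl10 was 2.06. The adjusted p stayed above 0.05 in each of these fits. Reads of Cxcl11 and Cxcl10 may be shared with overlapping annotations on the other strand. Of all stretches of 75 bases in Cxcl11 transcripts, 39.8% also belong to the pseudogene Gm2673, and 2.47% of those of Cxcl10 to Art3. GENCODE mouse release M21 labels Cxcl11 a polymorphic pseudogene, a gene that is interrupted in the reference strain.

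Cxcl1, Cxcl2, Cxcl3, Cxcl5 and Cxcl15 form a second group on chromosome 5, between 90759360 and 90905938 (GRCm38), all on the plus strand. The first 4 attract neutrophils through Cxcr2, and Cxcl15, or lungkine, is best known from lung epithelium. Cxcl1 (ENSMUSG00000029380, 90891241 to 90893115), which also bears the name KC, stood at 164, 75.4 and 109 CPM across NP+ against 458, 88.5 and 183 CPM in NP- (log2 fold change -1.07 ± 0.54 SE, adjusted p = 0.258). It was lower in NP+ in each tumour, but the groups overlapped, and MET-106 held the highest value of each fraction. Without the NP- library of MET-106 the log2 fold change was -0.17. With the tumour as a block it was -0.82 ± 0.27 SE (adjusted p = 0.153 by edgeR). Cxcl2, or macrophage inflammatory protein 2, stood at 8.40, 2.33 and 6.12 CPM across NP+ against 34.8, 3.04 and 9.38 CPM in NP- (adjusted p = 0.287), with the same order of tumours. Cxcl3, another Cxcr2 ligand, had 3, 46 and 1 counts across NP+ against 17, 23 and 74 in NP-, Cxcl5 had 0, 38 and 2 in NP+ and 238, 0 and 74 in NP-, and Cxcl15 had 0, 7 and 0 in NP+ and 44, 32 and 1 in NP-. In each of these 3 genes at least 1 library held 3 counts or fewer, where 3 counts correspond to 0.0546 to 0.125 CPM depending on the library. In NP- the mean level of Cxcl3 was 1.28 times, that of Cxcl15 1.27 times and that of Cxcl5 4.73 times the background density. The NP- libraries of MET-106 and MET-108, at 4.97 and 2.49 CPM, carried the Cxcl5 level.

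The sequences upstream of 4 of these chromosome 5 genes are shown because the genes hold matches to the same motif while their levels pointed different ways. They are the 250 bases before the RefSeq start (GRCm38.p6), read 5′ to 3′ on the gene's strand, with capitals at matches to the NF-kappaB consensus or to the core of the interferon-stimulated response element (ISRE).
Cxcl10: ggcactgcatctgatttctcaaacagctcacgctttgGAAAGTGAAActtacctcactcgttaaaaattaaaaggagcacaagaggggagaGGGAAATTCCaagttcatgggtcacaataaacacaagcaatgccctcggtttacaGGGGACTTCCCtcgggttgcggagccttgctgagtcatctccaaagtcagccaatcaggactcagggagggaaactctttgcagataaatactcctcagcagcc
Cxcl1: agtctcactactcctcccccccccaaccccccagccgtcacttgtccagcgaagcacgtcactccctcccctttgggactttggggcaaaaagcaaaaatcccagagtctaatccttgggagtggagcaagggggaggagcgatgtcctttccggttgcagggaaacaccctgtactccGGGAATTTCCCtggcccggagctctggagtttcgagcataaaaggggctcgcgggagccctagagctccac
Cxcl2: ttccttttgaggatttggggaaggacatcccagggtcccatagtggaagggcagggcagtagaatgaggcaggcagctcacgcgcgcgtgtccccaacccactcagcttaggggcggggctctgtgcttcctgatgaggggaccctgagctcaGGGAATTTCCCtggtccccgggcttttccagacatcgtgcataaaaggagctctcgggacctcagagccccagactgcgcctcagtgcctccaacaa
Cxcl3: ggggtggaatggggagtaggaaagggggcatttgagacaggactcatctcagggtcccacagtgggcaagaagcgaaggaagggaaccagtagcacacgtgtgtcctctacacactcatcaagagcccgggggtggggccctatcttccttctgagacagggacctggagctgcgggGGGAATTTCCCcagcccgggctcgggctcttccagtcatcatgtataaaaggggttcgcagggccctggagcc
The windows lie at chr5:92348890-92349139 on the minus strand and at chr5:90890995-90891244, chr5:90903649-90903898 and chr5:90785851-90786100 on the plus strand. A RefSeq promoter entry was found for 19 of the 29 members. The NF-kappaB consensus, searched on both strands, matched in 5 of the 19 windows (26.3%), against 7.25% of 32851 promoter windows of the same length. The matched members were Cxcl1, Cxcl2, Cxcl3, Cxcl10 and Ccl9. In Cxcl1, Cxcl2 and Cxcl3 the matched letters were the same, in overlapping positions on both strands, and Cxcl10 held 2 separate matched stretches. The ISRE core, GAAA then NN then GAAA on either strand, matched in Cxcl10 and Cxcl14, 2 of 19 windows (10.5%, against 2.98%), and it did not overlap an NF-kappaB match. TATAAA on either strand, not capitalised, was present in 8 of 19 windows (42.1%, against 12.4%). A match describes letters only and is not evidence of binding.

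Cxcl12 encodes stromal cell-derived factor 1, a homeostatic ligand of Cxcr4 and Ackr3 that retains haematopoietic cells and guides vessel growth. The gene (ENSMUSG00000061353) lies on chromosome 6 from 117168535 to 117181367, plus strand. Its level was 272, 212 and 157 CPM across NP+ against 399, 476 and 333 CPM in NP-, with means of 214 ± 57.4 against 402 ± 71.6 CPM. Every NP- library lay above every NP+ library and the order held in each tumour. The log2 fold change of -0.91 ± 0.24 SE had the smallest SE among the members tested, and its adjusted p was 0.125 by edgeR. With only genes of at least 5 CPM in 3 libraries and the tumour as a block, the log2 fold change was -1.20 and the adjusted p 0.0370, and over all settings tried the adjusted p ran from 0.0227 (DESeq2) to 0.434 (without the NP+ library of MET-108). Leaving out the NP- library of MET-106, where the fibroblast markers were highest, gave -0.86, a shift smaller than the SE. The fibroblast marker sum was also higher in NP- than in NP+ in MET-107 (129 against 40.5 CPM) and MET-108 (57.2 against 13.5 CPM). The part of fibroblasts or of pericytes in the Cxcl12 values was not tested.

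The other homeostatic CXC members were low. Cxcl14, a ligand of epithelia and fibroblasts, stood at 1.89, 3.75 and 2.61 CPM across NP+ against 23.0, 0.790 and 0 CPM in NP-, and the NP- library of MET-108 had a count of 0. The NP- values thus spanned from the lowest to the highest of the 6. The log2 fold change was -1.53 ± 1.53 SE (adjusted p = 0.543 by edgeR), and with the tumour as a block it was 1.66 ± 1.99 SE. Without the NP- library of MET-106 the NP- mean of Cxcl14 was 0.395 CPM, against 2.75 CPM in NP+, and the groups did not overlap. Cxcl13, the B cell ligand of Cxcr5, had 0, 0 and 7 counts across NP+ against 81, 2 and 5 in NP-. Cxcl17, a mucosal ligand, stood at 0.0824, 0.801 and 0.376 CPM in NP+, against 1.48, 1.04 and 0.639 CPM in NP- (adjusted p = 0.425).

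Cx3cl1 and Cxcl16 differ from the rest in that they are made as membrane-anchored proteins, which can hold leukocytes directly or be shed by Adam10 and Adam17. Cx3cl1, or fractalkine (ENSMUSG00000031778, chromosome 8 from 94772009 to 94782427, plus strand), stood at 108.2, 102 and 70.9 CPM across NP+ against 36.9, 79.9 and 139.8 CPM in NP-. The NP+ values lay inside the range of the NP- values (log2 fold change 0.13 ± 0.41 SE, adjusted p = 0.857), and the sign turned negative with upper-quartile or total-count scaling and without the NP- library of MET-106. Cxcl16, the Cxcr6 ligand, stood at 14.1, 13.2 and 6.97 CPM in NP+, against 16.2, 16.0 and 5.38 CPM in NP- (log2 fold change -0.13 ± 0.47 SE, adjusted p = 0.869), also with overlap. Of its 75-base stretches 15.4% are shared with Zmynd15 on the other strand.

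**Figure D4:**
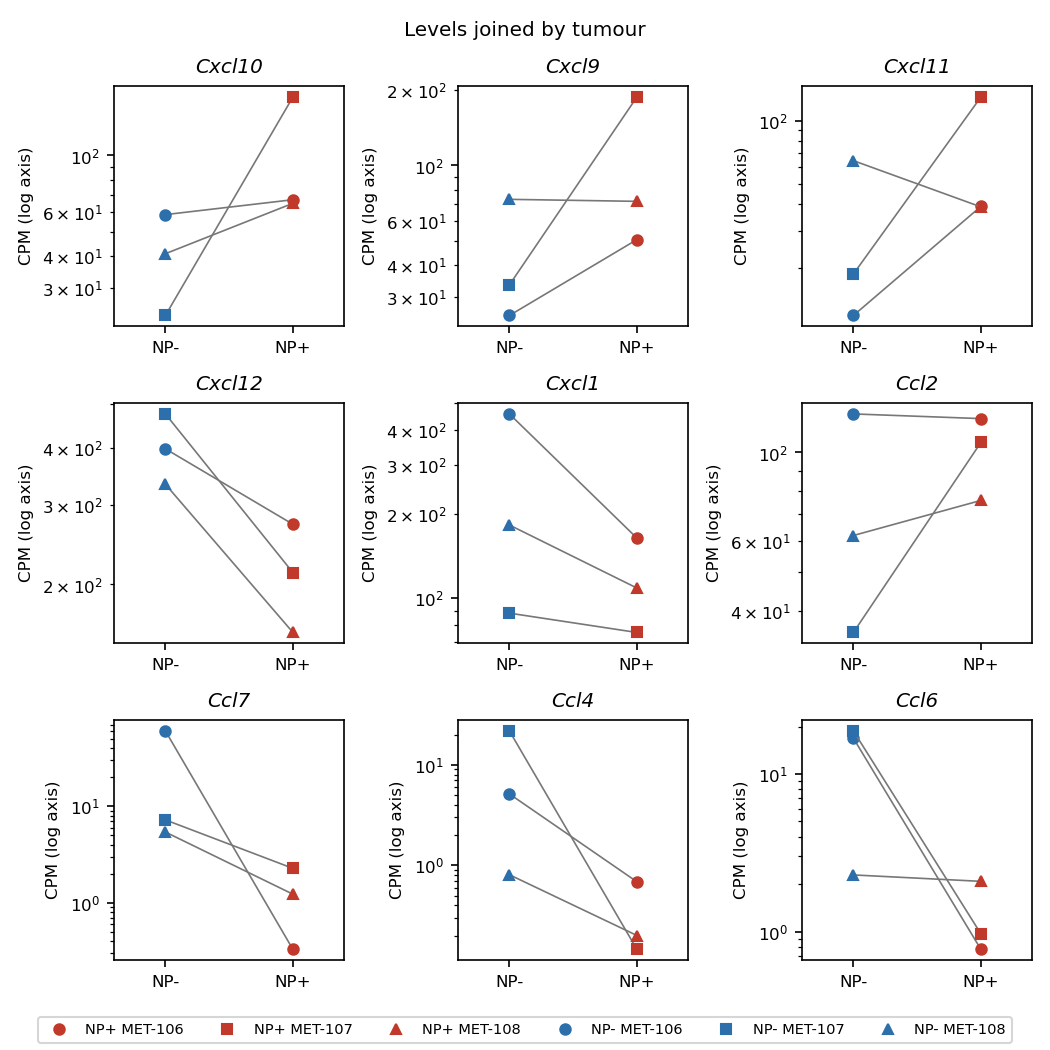
CPM of 9 chemokine ligand genes in NP- and NP+ libraries, with a line joining the fractions of 1 tumour, each panel on its own log axis. The Cxcl10 lines all slope up to NP+, the Cxcl12, Cxcl1, Ccl7, Ccl4 and Ccl6 lines all slope down, and the Cxcl9, Cxcl11 and Ccl2 lines are mixed.

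The monocyte-attracting genes Ccl2, Ccl7, Ccl12 and Ccl8 share a cluster with the eotaxin gene Ccl11 on chromosome 11 between 82035571 and 82116799 (GRCm38), all on the plus strand. Ccl2 (ENSMUSG00000035385, 82035571 to 82037453), the main Ccr2 ligand, stood at 122, 106.1 and 75.8 CPM across NP+ against 125, 35.3 and 61.9 CPM in NP- (log2 fold change 0.45 ± 0.41 SE, adjusted p = 0.506). The groups overlapped, and without the NP- library of MET-106 the log2 fold change was 1.11. Ccl7 (ENSMUSG00000035373, 82045712 to 82047525), a ligand of Ccr2 and other receptors that starts 8258 bases past the end of Ccl2, stood at 0.329, 2.28 and 1.23 CPM across NP+ against 60.3, 7.23 and 5.42 CPM in NP-. Its NP- values all exceeded its NP+ values (log2 fold change -4.23 ± 1.06 SE, adjusted p = 0.122). Without the NP- library of MET-106 the NP- mean of Ccl7 was 6.33 instead of 24.3 CPM and the log2 fold change -2.24. Ccl8 (ENSMUSG00000009185), which in mice binds Ccr8, stood at 0.137, 0.273 and 0.0753 CPM across NP+ against 10.3, 1.54 and 0.269 CPM in NP- (log2 fold change -4.60 ± 1.32 SE, adjusted p = 0.134). The low value of NP- MET-108 made the groups of Ccl8 overlap. Without the NP- library of MET-106 the NP- mean of Ccl8 was 0.904 instead of 4.05 CPM and the log2 fold change -2.38. Ccl12, a mouse Ccr2 ligand, stood at 0.302, 0.637 and 0.426 CPM in NP+, against 0.522, 1.497 and 0.101 CPM in NP- (adjusted p = 0.733). Ccl11 (ENSMUSG00000020676, 82057823 to 82062955), which attracts eosinophils through Ccr3, stood at 1.15, 0.783 and 0.828 CPM across NP+ against 77.2, 4.28 and 0.0673 CPM in NP-. The NP- libraries held both the highest and the lowest value of Ccl11 (log2 fold change -4.89 ± 1.67 SE, adjusted p = 0.154). With the tumour as a block the log2 fold change was -2.39, and without the NP- library of MET-106 it was -1.17. Ccl2, Ccl7, Ccl8 and Ccl11 each had their highest value of all 6 in the NP- library of MET-106, the library with the high fibroblast and epithelial marker sums. The part of those cells in these values was not tested.

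A second CC cluster on chromosome 11, between 83525778 and 83664683 (GRCm38), holds Ccl5, Ccl9, Ccl6, Ccl3 and Ccl4, genes mostly known from macrophages and T cells. All 5 were lower in NP+ in each of the 3 tumours. Ccl4 (ENSMUSG00000018930, 83662584 to 83664683, plus strand), macrophage inflammatory protein 1 beta, stood at 0.686, 0.146 and 0.201 CPM across NP+ against 5.14, 21.7 and 0.807 CPM in NP-. The groups did not overlap, but NP- MET-108 lay just above NP+ MET-106 (log2 fold change -4.75 ± 1.20 SE, adjusted p = 0.122). Ccl3 (ENSMUSG00000000982, 83647844 to 83649355, minus strand), the alpha form, stood at 1.02, 0.164 and 0.1003 CPM across NP+ against 2.65, 15.9 and 0.572 CPM in NP- (log2 fold change -3.90 ± 1.33 SE, adjusted p = 0.154). For both genes NP- MET-107 was highest, and without it the NP- means were 1.61 CPM for Ccl3 and 2.97 CPM for Ccl4, against 6.37 and 9.23 CPM with it. Ccl6 (ENSMUSG00000018927, 83587882 to 83593087, minus strand), a Ccr1 ligand of myeloid cells, stood at 0.769, 0.965 and 2.08 CPM across NP+ against 16.9, 18.8 and 2.29 CPM in NP- (log2 fold change -3.31 ± 0.79 SE, adjusted p = 0.117). Here MET-106 and MET-107 differed between fractions and MET-108 hardly did. Ccl9 (ENSMUSG00000019122, 83572919 to 83578636, minus strand), another Ccr1 ligand, stood at 0.302, 0.273 and 0.728 CPM across NP+ against 3.38, 2.70 and 2.19 CPM in NP- (log2 fold change -2.66 ± 0.74 SE, adjusted p = 0.129). The NP- mean of Ccl9 was 3.21 times the background density, against 2.24 times in NP+. Ccl5, or RANTES, stood at 3.35, 2.48 and 5.07 CPM in NP+, against 4.30, 2.79 and 5.99 CPM in NP- (log2 fold change -0.26 ± 0.52 SE, adjusted p = 0.763), a difference within the spread of either group. Beside these values, 6 of the 11 macrophage markers tested had an unadjusted p under 0.05 and were lower in NP+, among them Csf1r and Lyz2, and 0 were higher (against 15.4% and 8.01% of all genes). The complement genes C1qa, C1qb and C1qc of that list, typical of tissue macrophages, were low, at 0.537 ± 0.210, 1.16 ± 0.927 and 1.11 ± 0.746 CPM across NP+ against 0.228 ± 0.236, 1.02 ± 0.281 and 0.459 ± 0.407 CPM across NP-. Of the neutrophil markers tested, 4 of 6 were lower and 0 higher at the same level. Of the 6 lower macrophage markers, Lyz2 stood at 88.1 times the background density in NP+ and 127 times in NP-. Csf1r stood at 6.66 and 6.05 times, Ptprc at 3.84 and 2.69, and Fcgr1 at 3.34 and 3.78. Adgre1 stood at 1.96 and 2.01 times and Itgam at 0.723 and 0.766. The part of the higher background of NP- in these marker differences was not tested. The part of myeloid cells or lymphocytes in the chemokine values was not tested either.

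**Figure D5:**
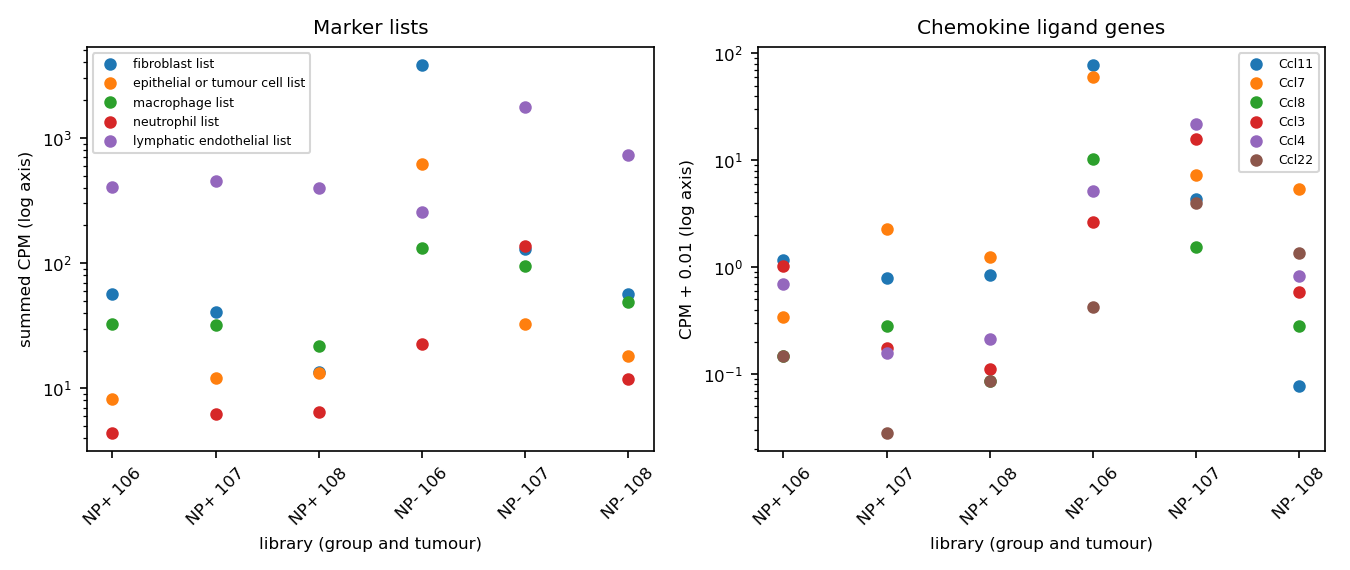
Left, summed CPM of 5 marker lists in each library, and right, CPM plus 0.01 of 6 chemokine ligand genes, both on log axes with 1 point per library. Fibroblast and epithelial lists and Ccl7, Ccl11 and Ccl8 peak in the NP- library of MET-106, and lymphatic and neutrophil lists and Ccl3, Ccl4 and Ccl22 peak in that of MET-107.

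Ccl22 and Ccl24 had few counts in NP+. Ccl22 (ENSMUSG00000031779, chromosome 8 from 94745590 to 94751699, plus strand), a Ccr4 ligand of dendritic cells and macrophages that attracts regulatory T cells, had 5, 1 and 3 counts across NP+ against 20, 95 and 40 in NP-. That is 0.137, 0.0182 and 0.0753 CPM against 0.418, 3.95 and 1.35 CPM (log2 fold change -4.61 ± 1.22 SE, adjusted p = 0.126). Its neighbour Cx3cl1 begins 20309 bases further on, at a mean of 93.6 CPM in NP+. Ccl24 (ENSMUSG00000004814, chromosome 5 from 135569937 to 135573049, minus strand), an eotaxin, had 0, 2 and 3 counts across NP+ against 21, 42 and 26 in NP-, or 0, 0.0364 and 0.0753 CPM in NP+, against 0.439, 1.75 and 0.875 CPM in NP- (log2 fold change -4.64 ± 1.28 SE, adjusted p = 0.128). For neither gene did the groups overlap. Of 5 dendritic cell markers, 2 were lower and 1 higher in NP+ at an unadjusted p under 0.05 (against 15.4% and 8.01% of all genes). Their sum, 50.1 to 52.8 CPM in NP+ and 26.7 to 51.8 CPM in NP-, was mostly Zbtb46 (48.8 ± 1.56 against 25.2 ± 5.67 CPM). The other 4 had lower means in NP+, with Flt3 at 0.633 ± 0.258 against 4.18 ± 3.14 CPM, Cd209a at 0.240 ± 0.0905 against 1.92 ± 1.76 CPM, Itgax at 0.724 ± 0.682 against 2.80 ± 4.02 CPM and Xcr1 at 0.628 ± 0.639 against 1.08 ± 0.306 CPM. The part of dendritic cells in the Ccl22 values was not tested. The NP- means of Ccl22 and Ccl24 were 2.91 and 2.79 times the background density of the NP- libraries, and their NP+ means 0.519 and 0.451 times that of the NP+ libraries. The background density itself was higher in NP- MET-107 and MET-108 than in any NP+ library, and its part in these low counts was not tested.

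Ccl21a, the lymphatic ligand of Ccr7, stood at 0.165, 0.473 and 0.0502 CPM across NP+ against 0.355, 2.66 and 0.202 CPM in NP- (log2 fold change -2.18 ± 1.29 SE, adjusted p = 0.317). The highest value was in NP- MET-107, where the lymphatic marker sum was also highest. Of the 75-base stretches of Ccl21a, 61.3% occur in transcripts of near-identical genes such as Ccl21b, so its counts are uncertain. Ccl25, a thymic and intestinal ligand of Ccr9, stood at 9.86, 8.54 and 8.00 CPM in NP+, against 10.4, 5.28 and 5.31 CPM in NP- (adjusted p = 0.609), with overlap, and shares 1.48% of its stretches with Elavl1. Ccl28, a mucosal ligand, had 4, 4 and 3 counts across NP+ against 7, 25 and 79 in NP-. Its groups did not overlap, and its NP- mean was 1.22 times the background density.

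The partners of the ligands were read from lists of receptors, enzymes and display genes. None of those tested had an adjusted p under 0.05 by edgeR. Their counts at an unadjusted p under 0.05 stand against 8.01% of all genes tested that were higher in NP+ and 15.4% that were lower. Of 16 conventional chemokine receptors tested, 3 were lower in NP+ and 0 higher at an unadjusted p under 0.05: Ccr2, the monocyte receptor of Ccl2, at 0.919 ± 0.528 CPM across NP+ against 7.26 ± 6.76 CPM in NP- (adjusted p = 0.130), Ccr9 at 1.17 ± 0.697 against 7.22 ± 5.38 CPM (adjusted p = 0.140), and Ccr1 at 0.328 ± 0.459 against 3.32 ± 0.991 CPM (adjusted p = 0.154). Cxcr4, the signalling receptor of Cxcl12, had the highest level per kb among them in both fractions (6.66 ± 0.524 and 7.32 ± 6.55 CPM per kb), and by gene it stood at 12.3, 12.8 and 10.99 CPM across NP+ against 4.97, 7.94 and 26.8 CPM in NP-. Of 7 atypical receptors and related binding proteins, 1 was higher and 1 lower. Ackr1, the Duffy antigen receptor that carries chemokines across venular endothelium, stood at 482, 307 and 320.1 CPM across NP+ against 288, 195 and 85.1 CPM in NP-, with all NP+ libraries above all NP- libraries (log2 fold change 0.96 ± 0.40 SE, adjusted p = 0.193). Pitpnm3, reported as a receptor of a human CC ligand, was the lower one, at 1.10 ± 0.341 against 3.82 ± 1.93 CPM (adjusted p = 0.170). Ackr3, the scavenger of Cxcl12, stood at 156, 156 and 195 CPM in NP+, against 86.1, 145 and 247 CPM in NP- (adjusted p = 0.887), with overlap.

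Enzymes that shed or trim chemokines were lower for 4 of 7 and higher for 0 at an unadjusted p under 0.05, against 15.4% and 8.01% of all genes. The sheddase genes Adam10 and Adam17, which had the highest levels of the list, were not among the 4. Adam10 stood at 671, 534 and 643 CPM across NP+ against 336, 441 and 553 CPM in NP- (adjusted p = 0.225 by edgeR). It was higher in NP+ in each tumour, with overlap of the groups. Adam17 stood at 176 ± 26.4 against 147 ± 43.4 CPM (adjusted p = 0.496), also with overlap. Dpp4, which clips Cxcl12 and Cxcl10, stood at 0.933, 1.48 and 1.03 CPM across NP+ against 9.25, 10.2 and 1.78 CPM in NP- (adjusted p = 0.126). Mmp12 stood at 0.334 ± 0.169 against 2.07 ± 1.496 CPM (adjusted p = 0.153), and Mmp9 at 0.622 ± 0.212 against 11.7 ± 19.4 CPM (adjusted p = 0.170), the latter with 34.2 CPM in NP- MET-106 and under 1 CPM in every other library. Of 10 display genes, 2 were higher and 2 lower at an unadjusted p under 0.05, with the same all-gene shares beside them. The heparan sulfate sulfotransferase genes Ndst2 (27.1 ± 2.07 against 15.5 ± 5.77 CPM, adjusted p = 0.168) and Ndst1 (111 ± 4.99 against 70.7 ± 29.2 CPM, adjusted p = 0.200) were on the higher side. Sdc2 (1.36 ± 0.438 against 18.5 ± 23.7 CPM, adjusted p = 0.121) and Sdc4 (6.35 ± 1.15 against 20.3 ± 20.4 CPM, adjusted p = 0.176), 2 syndecan genes, were on the lower side, each with its highest value in NP- MET-106. Of 12 cytokine receptor genes upstream of endothelial chemokines, 4 were higher and 0 lower at that level, against 8.01% and 15.4% of all genes. Ltbr, the lymphotoxin beta receptor gene, stood at 179, 185 and 207 CPM across NP+ against 123, 148 and 114 CPM in NP- (log2 fold change 0.57 ± 0.17 SE, adjusted p = 0.142). Il13ra1 stood at 239 ± 23.7 against 149 ± 36.4 CPM (adjusted p = 0.145), and the interferon receptor genes Ifnar1 and Ifngr2 at 262 ± 64.0 against 155 ± 61.5 CPM (adjusted p = 0.180) and 136 ± 15.2 against 50.0 ± 49.4 CPM (adjusted p = 0.191). Pf4, a platelet chemokine outside the name pattern, stood at 1.81, 1.89 and 0.326 CPM in NP+, against 4.03, 3.78 and 1.18 CPM in NP- (adjusted p = 0.398), and Ppbp had 4, 2 and 2 in NP+ and 16, 17 and 0 in NP- counts.

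In the authors' deposited table, 27 of the 29 members have an adjusted p, and at a threshold of 0.05 it holds 1 member higher in NP+ (3.70%, against 3.71% of its genes) and 9 lower (33.3%, against 9.45%). In the authors' deposited table the higher member is Cxcl10, with a log2 fold change of 1.34 and an adjusted p of 0.0302. In the same table, which the authors deposited, Ccl4 has the smallest adjusted p among the members (9.65e-05, log2 fold change -4.63), then Ccl6 (0.000366, -3.24) and Ccl8 (0.00183, -4.64). Ccl7 and Cxcl14 have no p in the authors' deposited table, and both held their highest count in NP- MET-106.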

How the data were processed

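Deposited values are whole-number counts by gene, 1 file a library. The submitters' processing notes name Trimmomatic 0.036, STAR 2.5.2b, featureCounts (Subread 1.5.2), DESeq2 and build GRCm38 (mm10). For strand handling, multi-mapped reads and the annotation release, the settings were not given in the sources used here. The authors' deposited table adds a size-factor-scaled signal for each library (100% of 156426 values gave whole reads within 0.01, all equal to the counts), log2 fold changes, turned here to NP+ over NP-, and the authors' p-values, raw and adjusted. Genes with 60 or fewer total counts are not in it.

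Libraries were made with SMART-Seq v4, which does not mark strand or molecules, and sequenced from both ends (150 bp), per the labels' protocols. Of 49315 gene IDs, 48970 matched a symbol in the reference table.

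The main test was edgeR 4.0.16 (R 4.3.3) quasi-likelihood, unblocked, after TMM scaling and filterByExpr (minimum count 10), which left 23989 genes and 26 members. P values were Benjamini-Hochberg adjusted over all genes (threshold 0.05). The SE is the log2 fold change divided by the square root of F. DESeq2 1.42.0 and limma 3.58.1 were alternatives. The test was tried on simulated data with known changes. The labels tie each NP+ library to the NP- library of the same tumour (correlations of deviations 0.28, 0.21 and 0.02), and the tumour block was an alternative. Per-sample values are given for the 12 tested members with the smallest p and the 8 with the highest level per kb. Further values are given for the rest, and for partner lists for up to 3 genes with the smallest p. Adam10, Adam17, Ndst1, Sdc4, Ifngr2, Cxcr4, Ackr3, C1qa, C1qb, C1qc and the dendritic cell markers were chosen after their values were seen. So were the background multiples of markers and partner genes, and the lymphocyte and pericyte sums. The members, lists and rules were chosen with earlier results of these data known.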

Additional observations from a re-analysis of the deposited data

How the results depend on the processing

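The number of members called at an adjusted p under 0.05 was 10 with DESeq2, 8 with no low-count filter, 1 with the 5 CPM filter and tumour block (Cxcl12), 2 without the NP- library of MET-106, 3 without that of MET-108 (so 0 to 3 with 1 library left out), and 0 under the other settings tried, including a threshold of 0.1. Calls over all genes, 7 in the test reported, were 15 with the tumour as a replicate block, 3331 with DESeq2, 18 with limma-voom, 21 with upper-quartile scaling and 11 by total counts, 1211 with no low-count filter, 105 with the 5 CPM filter, 227 with that filter and the tumour block, 0 without tumour MET-106 or MET-107, 1 without MET-108, and 0 to 2320 with 1 library left out (2320 without the NP- library of MET-106, 290 without that of MET-108). The block changed no call on a member and left 2 higher and 10 lower at an unadjusted p under 0.05, but Cxcl1 took the place of Ccl11 among the lower ones. Members higher at that level were 1 with upper-quartile or total-count scaling, 0 with the 5 CPM filter with or without the block, 0 without tumour MET-107, 4 without MET-108, and 0 to 3 with 1 library left out. Members lower were 6 with limma-voom, 3 with the 5 CPM filter, 4 with that filter and the block, 6 without tumour MET-107, and 9 to 13 with 1 library left out. Without the NP+ or the NP- library of MET-107 no member was higher. The 5 CPM filter left 11 members. Shares of all genes at that level were taken only for the main fit and the block, so the counts of the other settings have no background beside them.

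The median log2 fold change of all members was -1.42 with limma-voom, -1.35 with upper-quartile and -2.21 by total counts, -1.51 with the main low-count filter (26 members), -0.15 with the 5 CPM filter (11 members), 0.0386 with that filter and the block, and -1.95 with the recovered reads. It was -0.92 without tumour MET-106, -2.18 without MET-107 and -1.95 without MET-108, and -2.22 to -0.84 with 1 library left out. Under the filters fewer members had a value, and estimates of members that stayed also moved, as for Cxcl12 from -0.91 to -1.19 with the 5 CPM filter. The cause of these changes in the median was not tested for any setting. Over the genes of the deposited table that median was -0.30, 0.16 with upper-quartile scaling and -0.79 by total counts. Of 16 members described by p or level, 15 kept their sign in every setting that could fit them. Cx3cl1 turned to -0.15 with upper-quartile scaling, -0.17 with total counts, -0.15 with the 5 CPM filter, -0.16 without tumour MET-106, and ranged from -0.18 (without the NP- library of MET-106) to 0.71 with 1 library left out. The recovered reads, the 5 CPM filter with the block and the non-overlap counts without a library were chosen after seeing the data. At NP- depths of 20856410 to 44694267 counts, members of a few counts per library cannot be ordered.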

Other observations

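Genes of the same name pattern with a total count of 60 or less are not in the authors' deposited table and are not among the members. Their counts are given for the 3 NP+ libraries and then the 3 NP- libraries in tumour order. Ccl1 had 3, 17 and 3 against 2, 4 and 1 counts, Ccl17 had 0, 10 and 0 against 12, 0 and 0, and Ccl27a had 4, 2 and 0 against 9, 23 and 2. Ccl20, the Ccr6 ligand, had 0, 1 and 1 against 5, 0 and 1, Ccl26 had 0, 5 and 0 against 0, 1 and 0, and Xcl1, a ligand of natural killer and T cells, had 2, 1 and 2 against 0, 3 and 0. Ccl19, the partner of Ccl21a at Ccr7, and the duplicated genes Ccl21b and Ccl27b had 0 counts in all 6 libraries. For Ccl21b and Ccl27b this says little, since reads of near-identical copies may not have been counted. Stretches that Ccl19 shares with other genes were not examined, so its 0 counts are no proof of absence.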
